A study of Mus musculus with 2 samples.

Results

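The cyclins and cyclin-dependent kinase (Cdk) partners examined here were 10 genes: the D-type cyclins Ccnd1, Ccnd2 and Ccnd3, the cyclins Ccne1, Ccna2 and Ccnb1, the kinases Cdk4, Cdk6 and Cdk2, and the Cdk inhibitor Cdkn1b. They were taken by gene symbol from the 28095 gene names of the array, and 20 probes carried those symbols. The RNA came from NIH3T3 cells, an immortalised mouse embryo fibroblast line, grown in medium with 10% bovine serum and either left untreated (control) or exposed for 3 h to 10 µM thapsigargin, which blocks the pump that fills the endoplasmic reticulum (ER) with calcium and so causes ER stress. Lysates were spread on 10-40% sucrose gradients, and RNA bound to polysomes (P, labelled with Cy3) was hybridised against RNA from the free and monosome fractions (FM, labelled with Cy5). Each condition had 1 array, made from 3 pooled preparations, so no value below has a replicate check between conditions, and no test was possible. The only repeats were 10 printed spots of a single probe for Ccnd1 and for Cdkn1b, and different probes of a gene.

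Progress through the cell cycle is driven by kinases that are active only when a cyclin is bound to them. Growth factors raise the D-type cyclins, which pair with Cdk4 and Cdk6 in G1 and phosphorylate the retinoblastoma protein, and this frees E2F factors that switch on Ccne1 and Ccna2. Cyclin E and cyclin A then activate Cdk2 for S phase, and cyclin B1 activates Cdk1 for mitosis. Cdkn1b (p27) binds and restrains cyclin-Cdk complexes. D1 is known as a short-lived cyclin whose synthesis falls when the ER stress kinase PERK phosphorylates eIF2α, and NIH3T3 cells are known to lack the Cdkn2a locus, another inhibitor gene.

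Each array value is the ratio of signals on a 60-base DNA probe, and probes of the same gene did not always move together. Probe positions are therefore given, but whether position in the mRNA bears on the readings was not tested. The sequences below, as deposited with the arrays, are the member probes taken as coding, with positions on mouse build mm9 (NCBI37). The probes shown were not chosen by the size of their change. They were taken as coding from their reading frame and knowledge of the genes, without a transcript map. Each reads without a stop codon in at least 1 frame, but so do member probes not shown, such as that of Ccnd3. All bases are in lower case because no part of a probe was singled out. The Cdk4 probe lies at chr10:126501967-126502026 (plus strand), probe 2 of Cdk6 is placed at chr5:3473220-3515504 (plus strand), a span of 42285 bases that a 60-base probe can cover only across an intron, and the Cdkn1b probe with 10 spots lies at chr6:134871103-134871161 (plus strand). Probes 2 and 3 of Ccnd2 lie at chr6:127089187-127089246 and chr6:127098696-127098755 (minus strand), and probe 3 of Ccnb1 at chr13:101549634-101549693 (minus strand).
Cdk4: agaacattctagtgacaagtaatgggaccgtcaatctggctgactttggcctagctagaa
Cdk6 probe 2: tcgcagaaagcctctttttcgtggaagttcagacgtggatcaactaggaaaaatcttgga
Ccnd2 probe 2: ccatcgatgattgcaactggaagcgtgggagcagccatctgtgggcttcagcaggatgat
Ccnd2 probe 3: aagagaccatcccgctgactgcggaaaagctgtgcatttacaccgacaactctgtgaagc
Ccnb1 probe 3: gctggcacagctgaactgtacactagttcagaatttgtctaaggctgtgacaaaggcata
Cdkn1b probe 1: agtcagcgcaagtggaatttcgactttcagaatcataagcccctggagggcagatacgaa

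The value followed below is log2 P/FM, the log2 of the polysome signal over the free plus monosome signal after background subtraction, which is above 0 where the polysome signal is the brighter. A is the mean of both log2 signals, and a probe entered the counts where A was above 4.5 on both arrays. Of the 20 member probes 16 passed, in 9 genes, and all 16 were well above background in both dyes on both arrays. Across all 17173 probes that passed, log2 P/FM had a median of 0.22 on the control array and of -0.29 on the stressed array, and the median change was -0.61. That median depends on scaling: it was 1.94 when the stressed array was scaled to the 10 spike-in probes, whose own median change was -2.44, and -0.08 after loess. The change also ran with brightness, from a median of -0.09 at a mean A of 6 to -1.66 at a mean A of 12. Each member is therefore given beside the median of the probes within 0.5 of its own mean A, and by its percentile among all probes on each array, which no shift of a whole array can alter. ER stress targets were higher on the stressed array: A was higher by 3.71 for Ddit3 (CHOP), 4.19 for Herpud1 and 1.96 for Hspa5 (BiP), and the log2 P/FM of Atf4 by 3.42. The fibroblast markers were present (11 of 13 probes passed), 1 of 6 blood probes passed, and none of the 2 epithelial and 4 endothelial probes did. Cdkn2a did not pass and was not well above background.

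The D-type cyclins did not move together. Ccnd3 went from a log2 P/FM of 1.49 in control cells to -1.68 under thapsigargin, a 9.02-fold lower ratio, while Ccnd1 and Ccnd2 changed by about -0.5, a sign that turned after loess and with spike-in scaling. Ccnd3 was read by 1 spot of 1 probe (chr17:47736267-47736326, plus strand). The polysome signal of Ccnd3 was 3799 and its free plus monosome signal 1351 in control cells, against 1026 and 3292 under thapsigargin. Its change of -3.17 stood beside a median of -1.49 for equally bright probes, and its percentile among all probes went from 89.6 to 11.4. It stayed negative under every alternative processing, between -3.17 and -0.62, the last with spike-in scaling.

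Ccnd1 was read by 10 spots of a single probe (chr7:152116173-152116232, minus strand, designed on the sequence S78355). In control cells the spots ran from 0.64 to 0.94 with a median of 0.71, and under thapsigargin from 0.04 to 0.36 with a median of 0.21. The spots of the arrays did not overlap, and all 10 were lower on the stressed array. That separation is measured against spot error only. Among 110 probes with 8 or more spots the median SD over spots was 0.10 in control and 0.09 under stress. The median change of all probes was -0.61, and 66.2% of them were lower. How many other probes separate likewise was not counted, so the separation cannot be read as particular to Ccnd1. The change of Ccnd1 was -0.53 ± 0.11 (SD over 10 spots of a single pair of arrays), a 1.44-fold lower ratio. It was nevertheless smaller than that of equally bright probes, whose median was -0.91, and the percentile of Ccnd1 among all probes was 68.3 in control cells and 68.7 under thapsigargin, or 51.6 and 66.6 after loess. After loess, in the scanner's processed signals and log ratio, and with spike-in scaling, the sign of the Ccnd1 change turned positive. The brightness of Ccnd1 was lower as well, with a change in A of -0.34 ± 0.10 (SD over 10 spots) beside a median of 0.45 for equally bright probes, and this sign held under every alternative. The polysome signal of Ccnd1 was lower by 0.60 on the log2 scale and its free plus monosome signal by 0.08. In pooled cells, fewer cells holding an mRNA and less of it per cell cannot be told apart.

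**Figure D1:**
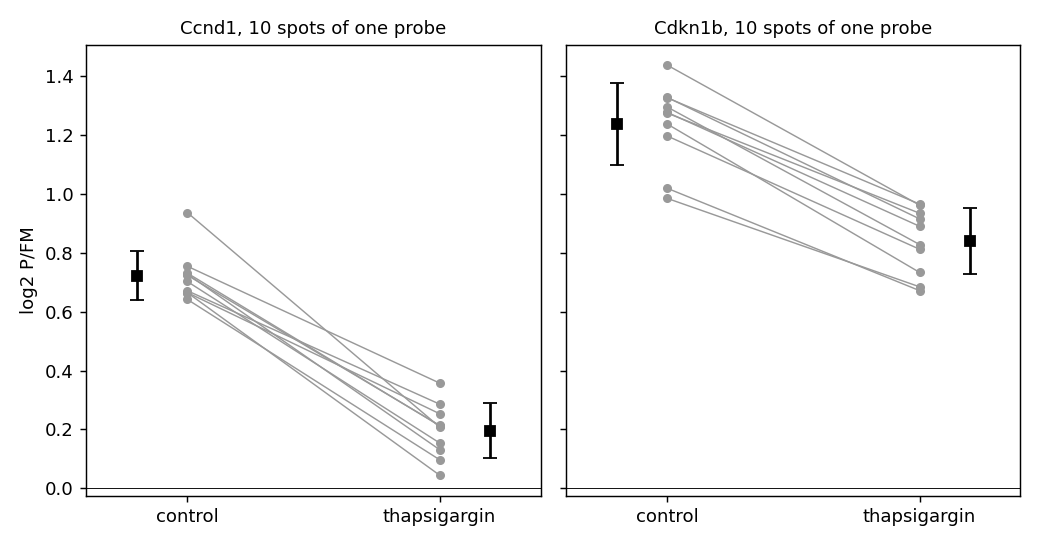
Log2 P/FM (vertical axis) of the 10 spots of the Ccnd1 probe and of the 10 spots of Cdkn1b probe 1 on the control and thapsigargin arrays. Each grey line joins a spot position on both arrays, and black squares with bars give mean and SD over spots, which measure spot error on 1 array per condition. All 10 spots of each probe are lower on the stressed array before any scaling between arrays, as are 66.2% of all passing probes by their means. That direction turns for Ccnd1 after loess, in the scanner's log ratio and processed signals and with spike-in scaling. For Cdkn1b it turns with normexp, centring and spike-in scaling.

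Ccnd2, the second D-type cyclin, was read by 3 probes on chromosome 6, separated by 9434 and 9450 bases, and these read alike. In control cells they read 1.22, 1.63 and 1.53 and under thapsigargin 0.69, 1.15 and 0.93, in the order of probes 1 to 3. Their mean change was -0.54 with an SD of 0.06 between the 3 probes, a spread at the 11.0th percentile of the 4046 genes with more than 1 passing probe. Each was 0.38 to 0.60 above the median of equally bright probes, and each lay between the 83.6th and the 93.3rd percentile of all probes on both arrays. After loess their percentiles went from 74.1, 85.6 and 82.3 to 84.5, 94.4 and 91.0. The sign of all 3 turned positive after loess, in the scanner's log ratio and processed signals and with spike-in scaling, and that of probe 2 also with centred arrays. Unlike Ccnd1, Ccnd2 had a higher A under thapsigargin, by 0.49 ± 0.04 (SD over 3 probes), beside a median of 0.37 for all probes, and was near 0 with centred arrays (-0.05 to 0.02).

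Cdk4, the G1 kinase that the D-type cyclins activate, had a high polysome ratio in control cells and a lower one under thapsigargin. It was read by 1 spot of 1 probe. Its polysome signal was 4187 in control cells and 1353 under thapsigargin, and its free plus monosome signal 913 and 1757. The log2 P/FM went from 2.20 to -0.38, a change of -2.57 or 5.95-fold, beside a median of -1.45 for equally bright probes. Its percentile went from 98.0 to 46.7. The change was negative under every alternative, from -2.63 to -0.02, the last with spike-in scaling, and it was -1.35 in the scanner's log ratio.

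Cdk6, the other partner of the D-type cyclins, gave opposite readings on its probes. Probe 2, taken as coding and placed across an intron, went from 2.17 to 0.65, a change of -1.52, and it turned positive with normexp (0.26) and spike-in scaling (1.03). Probe 1, designed on the cDNA AK030810, lies on the same strand at chr5:3529287-3529346. It went from -0.47 to 1.60, a change of 2.06, and stayed positive under every alternative, between 1.97 and 4.61. The polysome signal of probe 1 was 480 in control cells and 1544 under thapsigargin, and its free plus monosome signal 664 and 511. Probe 1 went from the 26.8th to the 97.7th percentile of all probes, while probe 2 went from the 97.8th to the 83.2nd. The third probe (chr5:3521669-3521728) did not pass the filter. It did not rise well above background in either dye on the control array, and on the stressed array only its polysome signal did, so it has no value. The SD of the change between probes 1 and 2 was 2.53, larger than in 99.7% of genes with more than 1 passing probe, so the gene has no common value. Whether the probes read the same transcript was not tested.

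**Figure D2:**
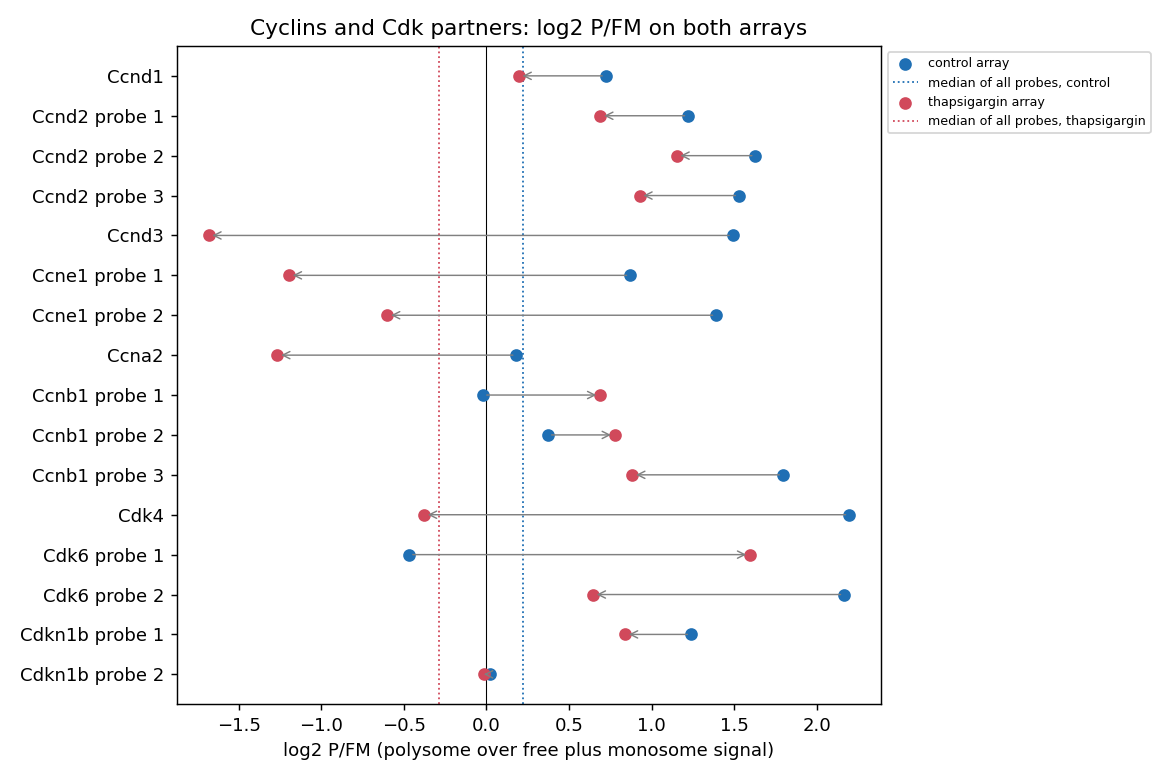
Log2 P/FM (horizontal axis) of the 16 member probes that passed the filter, in control cells (blue) and under thapsigargin (red), with arrows from control to stress and dotted lines at the medians of all probes (0.22 and -0.29). Ccnd3, Ccne1, Ccna2 and Cdk4 move from the right to the left of 0, Ccnb1 probes 1 and 2 and Cdk6 probe 1 move right, and with spike-in scaling all arrows but those of Ccnd3 and Cdk4 point right.

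Ccne1, the cyclin that activates Cdk2 at the start of S phase, shifted from the polysome to the free plus monosome signal on both of its probes. Probe 1 had a polysome signal of 2106 and a free plus monosome signal of 1152 in control cells, against 1250 and 2862 under thapsigargin. Probe 2 was much dimmer, with 122 and 46.4 in control cells and 76.8 and 116 under thapsigargin. The changes were -2.07 and -1.99, with an SD of 0.05, but they came apart under other settings, at -0.83 and -1.87 after loess, -0.80 and -2.16 in the scanner's log ratio and -1.86 and -0.24 with normexp. Equally bright probes had medians of -1.45 and -0.15. Both turned positive, to 0.48 and 0.56, with spike-in scaling and stayed negative under the other alternatives. The array annotation gives the same 24-base position for both (chr7:38882937-38882960, minus strand), which is shorter than the probes.

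Ccna2, the S-phase and G2 cyclin, was close to the median of all probes in control cells at 0.18 and read -1.27 under thapsigargin. Its only probe, printed as 1 spot (chr3:36463978-36464037, minus strand), had a polysome signal of 2037 and 1796 and a free plus monosome signal of 1796 and 4317. The polysome signal thus changed by -0.18 on the log2 scale and the free plus monosome signal by 1.27. The change in log2 P/FM of -1.45 was 0.08 above the median of equally bright probes (-1.53), it was -0.07 at its smallest among the loess and scanner settings, and it was 1.1 with spike-in scaling. Its percentile went from 48.7 to 18.8 before loess and from 25.9 to 24.6 after loess. Cdk2, the kinase partner of cyclins E and A, was not well above background on either of its probes in either dye on either array, so it has no value.

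Ccnb1, the mitotic cyclin, was read by 3 nearby probes on chromosome 13 that differed in control cells and came together under thapsigargin. In control cells they read -0.02, 0.37 and 1.80, and under thapsigargin 0.69, 0.78 and 0.88. The SD between probes was 0.96 in control cells and 0.10 under thapsigargin. Gaps of 335 and 207 bases separate neighbouring probes, and since the gene is on the minus strand, the order from probe 3 to probe 1 runs from 5′ to 3′. Probes 1 and 2 were higher by 0.71 and 0.40, in every alternative, and lay at the 84.8th and 72.1st percentile of equally bright probes. Probe 3 was lower by 0.91, and it turned positive (1.64) with spike-in scaling. The free plus monosome signal was lower by 0.89 and 0.66 on probes 1 and 2 and higher by 0.40 on probe 3. The polysome signal was lower on all 3, by 0.18, 0.26 and 0.51 on the log2 scale. The mean change of 0.07 over the 3 probes therefore stands for none of them.

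Cdkn1b, which holds cyclin-Cdk complexes in check, changed by -0.40 and -0.04 on its passing probes. Its 10 spots of probe 1 ran from 0.99 to 1.44 in control cells with a median of 1.28, and from 0.67 to 0.97 under thapsigargin with a median of 0.86. All were lower, by 0.40 ± 0.07 (SD over 10 spots), and the spots of the arrays did not overlap, a separation measured against spot error only. How many other probes separate likewise was not counted, and 66.2% of all passing probes were lower, so it cannot be read as particular to Cdkn1b. Equally bright probes had a median change of -0.32, and the percentile of probe 1 was 84.0 and then 87.7. The sign turned with normexp, centring and spike-in scaling. Probe 2 (chr6:134875215-134875274) read 0.02 and -0.02, and the third probe was not well above background. The readings of probes 1 and 2 differed by more than their changes did, with an SD of 0.86 in control cells and of 0.25 for the change.

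Counted over the 16 probes, 7 in 6 genes had a change of -0.8 or lower (Ccnd3, both of Ccne1, Ccna2, Ccnb1 probe 3, Cdk4 and Cdk6 probe 2), which is 43.8% beside 44.4% of all probes. Both arrays gave a log2 P/FM of at least 0.8 for 4 probes, Ccnd2 probes 2 and 3, Ccnb1 probe 3 and Cdkn1b probe 1, which is 25% beside 3.32% of all probes. Ccnb1 probe 3 met both rules. A log2 P/FM at or below 0 in control cells with a rise of 1 or more was seen for Cdk6 probe 1, beside 12.7% of all probes. No member probe had an A higher by 1 or more, beside 12.7% of all probes, and none had an A lower by 1 or more, beside 1.29%. The share of members past the first rule was thus near that of the array. Their median change was -0.57 beside -0.61, and 7 of the 16 lay below the median of equally bright probes and 9 above it. The members stood higher on both arrays, with medians of 1.23 and 0.67 beside 0.22 and -0.29. These levels were not matched for brightness, and genes with several passing probes count more than once. With the gene as the unit the medians were 0.72 and 0.073, beside 0.18 and -0.42. Among probes with A above 7 they were 1.22 and 0.69, beside 0.54 and -0.38.

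**Figure D3:**
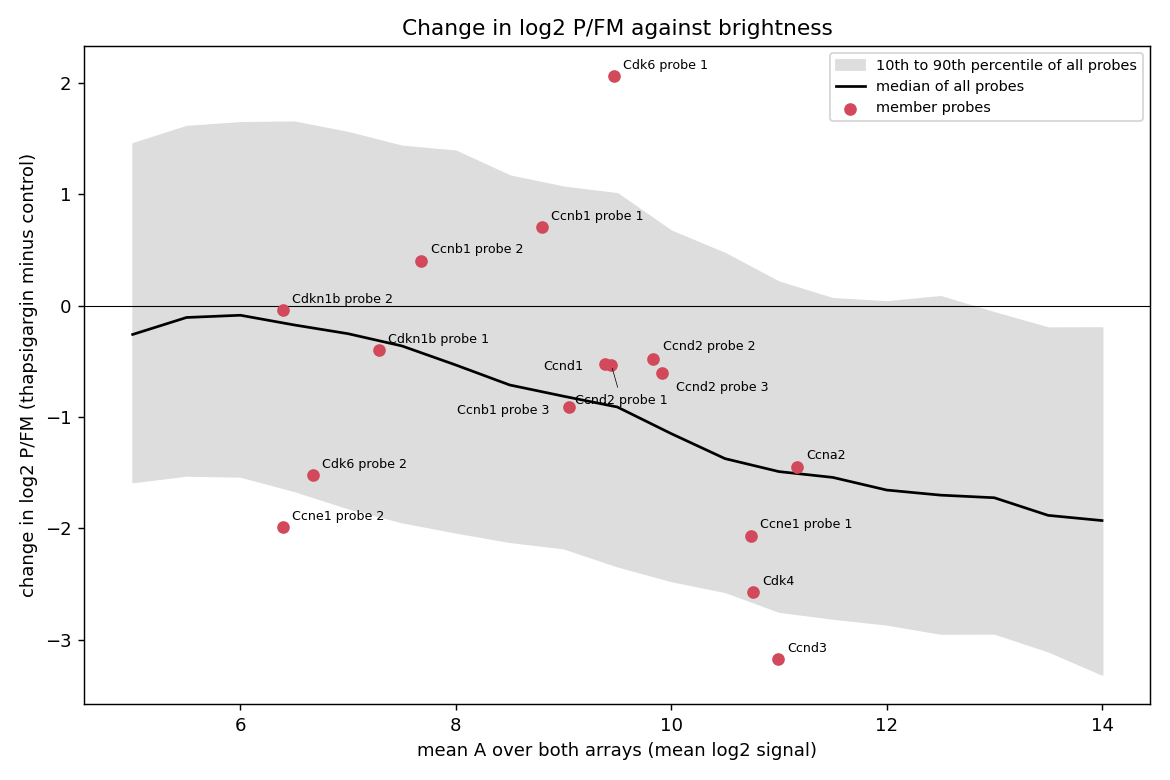
Change in log2 P/FM from control to thapsigargin (vertical axis) against mean A over both arrays (horizontal axis) for the 16 member probes, with the median and the 10th to 90th percentile of all probes within 0.5 of each brightness. Cdk6 probe 1 lies above the band and Ccnd3 and Ccne1 probe 2 below it. Ccnd1, Ccnd2 and both Ccnb1 probes that went up lie above the median line, and the values of Ccnd1 and Ccnd2 turn positive after loess, which removes that line.

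The order of the genes changed between the arrays. By the mean over passing probes it ran in control cells from Cdk4 (2.20) through Ccnd3 (1.49), Ccnd2 (1.46), Ccne1 (1.13), Cdk6 (0.85), Ccnd1 (0.72), Ccnb1 (0.72) and Cdkn1b (0.63) to Ccna2 (0.18). Only Cdk4 from Ccnd3, Ccnd2 from Ccne1 and Cdkn1b from Ccna2 were further apart than the median SD between probes of a gene, 0.32. Under thapsigargin it ran from Cdk6 (1.12) through Ccnd2 (0.92), Ccnb1 (0.78), Cdkn1b (0.41), Ccnd1 (0.20), Cdk4 (-0.38), Ccne1 (-0.90) and Ccna2 (-1.27) to Ccnd3 (-1.68). There the SD between probes was 0.30, and Cdk6 from Ccnd2, Ccnd2 from Ccnb1 and Cdkn1b from Ccnd1 were closer than that. Cdk4 thus went from the first to the sixth place and Ccnd3 from the second, not separated from Ccnd2, to the last. The values of Cdk4, Ccnd3 and Ccna2 each rest on 1 spot of 1 probe. The levels of Cdk6, Ccnb1 and Cdkn1b rest on probes that disagree, and in control cells probe 2 of Cdkn1b (0.02) lay below Ccna2.

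The changes had different make-ups in the polysome and the free plus monosome signals. Over all passing probes the polysome signal changed by a median of 0.07 on the log2 scale and the free plus monosome signal by 0.67. Ccnd3 and Cdk4 lost polysome signal (-1.89 and -1.63) and gained free plus monosome signal (1.28 and 0.94). Ccne1 probes 1 and 2 lost less polysome signal (-0.75 and -0.66) and gained about as much in the free plus monosome signal (1.31 and 1.33). In Ccnd2 both signals were higher, the polysome signal by 0.18 to 0.27 and the free plus monosome signal by 0.71 to 0.81. Cdk6 probe 1 was the only passing member probe whose polysome signal was higher by more than 1 on the log2 scale, at 1.69. The fractions were labelled so as to keep the proportion of RNA between them, so each signal also carries the amount of RNA in its fraction, and none of these changes is a change per cell.

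**Figure D4:**
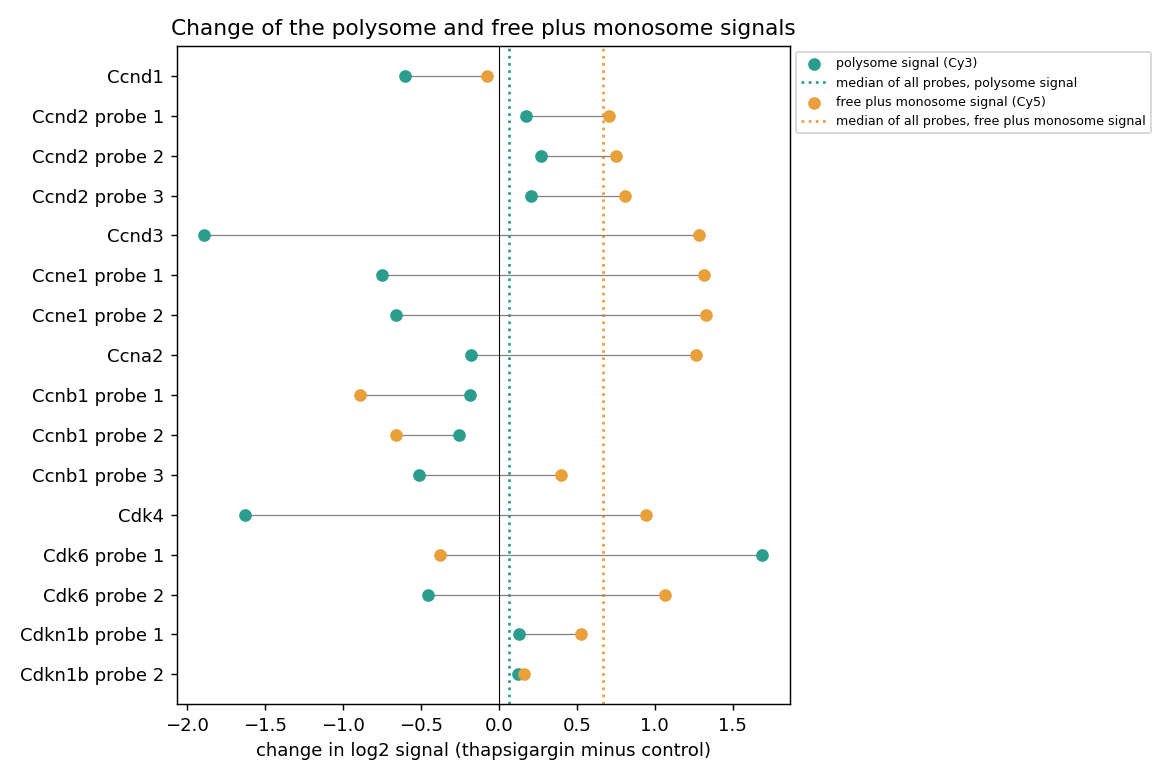
Change of the polysome signal (green) and of the free plus monosome signal (orange) from control to thapsigargin on the log2 scale (horizontal axis) for the 16 member probes, with dotted lines at the medians of all probes (0.07 and 0.67). The green points of Ccnd3, Cdk4 and Ccne1 lie left of 0 and their orange points near or above 1, while Ccnb1 probes 1 and 2 have both points left of 0 with the orange further left.

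The rest of the cell cycle machinery was read from lists of named genes. Each list count below stands beside the same shares of all passing probes: 44.4% had a change of -0.8 or lower and 12.7% met the rule for a rise. Among 16 other cyclins, 26 of 33 probes passed, of which 7 had a change of -0.8 or lower and 8 met the rule for a rise from 0 or below, and their median change was -0.30. Among those 8, a probe of Ccnl1 and the probes of Ccnt2 were not well above background in every signal. The median control log2 P/FM of the other cyclins was -1.48, in which genes with several passing probes, such as Ccni and Ccnl1, count more than once. Ccnb2 (1.09), Ccnf (0.93) and the passing probes of Ccnh were above 0, and every other passing probe of the list was below 0. Ccnh, the partner of Cdk7, went from 1.60 to -0.42 on its probe with the largest drop and from 0.27 to -0.19 on another, and Ccnl1, a cyclin of RNA splicing, went from -2.32 to -0.90. Among 14 other Cdks, 23 of 36 probes passed, 9 had a change of -0.8 or lower and 3 met the rule for a rise, with a median of -0.44. Cdk5, best known from neurons, went from 1.76 to -0.76, and a probe for Cdk12, a kinase of RNA polymerase II, from -1.37 to -0.10. Cdk7 changed from 1.27 to 0.83.

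Among the other Cdk inhibitors 4 of 7 probes passed, 1 had a change of -0.8 or lower, and the median was -0.30. Cdkn2d (p19Ink4d), an inhibitor of Cdk4 and Cdk6, went from 2.19 to -0.20, while Cdkn1a (p21) went from 0.53 to 0.80, the mean of 8 spots, and Cdkn2c (p18Ink4c) from 0.85 to 0.55. Among the 13 Rb and E2F genes 19 of 26 probes passed, 7 had a change of -0.8 or lower and 1 met the rule for a rise, with a median of -0.67. E2f4, a repressor E2F, went from -0.05 to -2.28, E2f7 from -0.23 to 0.84, and E2f5 from -0.49 to -1.16.

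Among the Cdc25 phosphatases, the kinases that oppose them and the Cks subunits, 11 of 12 probes passed, 6 had a change of -0.8 or lower and none met the rule for a rise, with a median of -0.96. Cdc25b, which removes inhibitory phosphates from Cdks, went from 0.94 to -1.31, and Cdc25c from 1.22 to 0.26. Cdc25a went from 0.60 to 0.64 on its probe with the largest rise and from 0.52 to -0.12 on another. Among the genes of cyclin and Cdkn1b turnover, 17 of 19 probes passed, 10 had a change of -0.8 or lower and 1 met the rule for a rise, with a median of -0.94. Fbxo31, an F-box protein, went from 1.88 to -1.02, the scaffold Cul1 from 0.09 to -0.85, and the kinase Gsk3b from -0.36 to 1.26. Measured against the median of all probes, the Cdc25 and Cks list was lower under each of the 8 scaling and background settings compared, with differences between -0.49 and -0.20. These are not 8 separate checks. A shift of a whole array cannot alter such a difference, so centred arrays and spike-in scaling repeat the -0.35 of the values as described. The scanner's log ratio and processed signals share the -0.49. The turnover list differed by -0.33 but by 0.07 in the scanner's log ratio and processed signals, and the other cyclins by 0.31 but by -0.05 with normexp. The other Cdks differed by 0.005 to 0.17 and the Cdk inhibitors by 0.31, and between -0.14 with normexp and 0.89 in the scanner's log ratio. The Rb and E2F list differed by -0.06, and between -0.35 after loess and 0.11 without background subtraction. With spike-in scaling the median of each list was above 0.

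The probes of other genes most like Ccnd1, by distance over control log2 P/FM, stressed log2 P/FM and change in A among 15600 probes well above background, were those of Nudt7 (distance 0.0784), Gprc5a (0.0827) and Acat2 (0.0904). Their log2 P/FM changes were -0.51, -0.46 and -0.59, and their changes in A -0.31, -0.41 and -0.42. With 2 arrays, each gene adds only 3 values to such a distance.

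**Figure D5:**
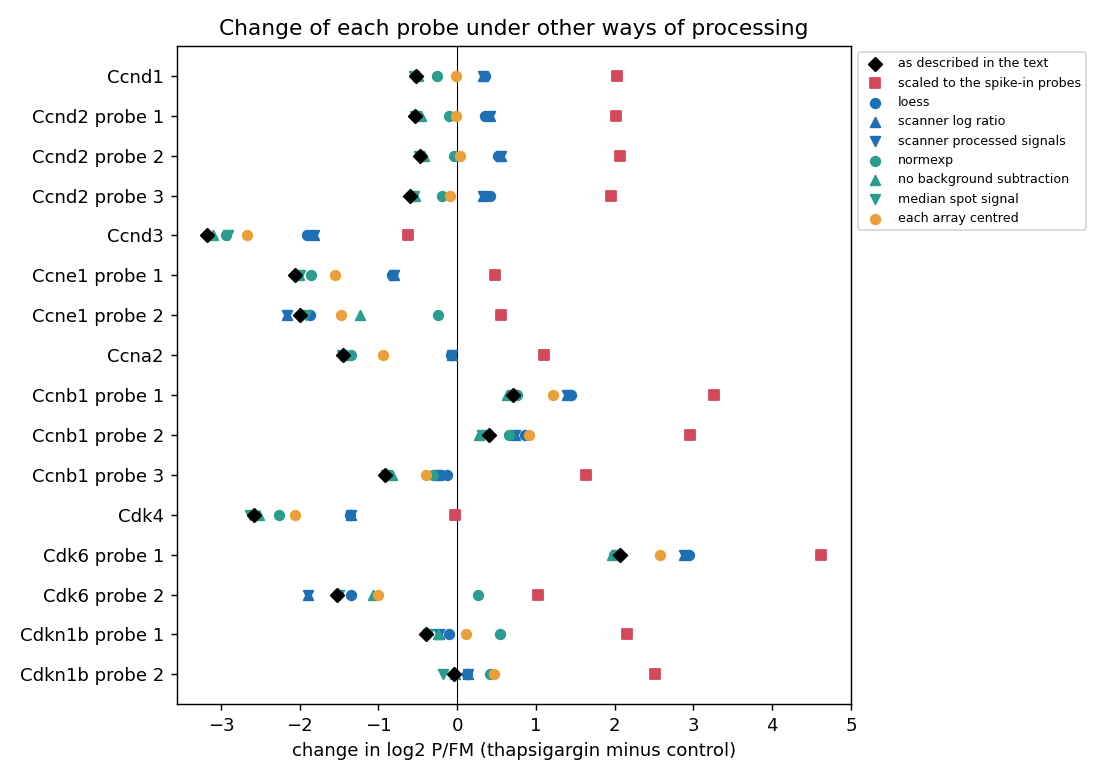
Change in log2 P/FM (horizontal axis) of the 16 member probes as described (black diamonds) and under 8 other ways to subtract background or scale the arrays (coloured symbols). Ccnd3 and Cdk4 stay left of 0, and Cdk6 probe 1 and Ccnb1 probes 1 and 2 right of 0, under all of them, while Ccnd1 and Ccnd2 lie on both sides and spike-in scaling (red squares) moves every probe to the right.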

How the data were processed

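Both arrays were 2-colour Agilent 44K mouse arrays. Per the file headers and the labels, the deposited intensities, background intensities, processed signals and log10 ratios (Cy5 over Cy3) were made with Agilent Feature Extraction 10.7.1, and the 2 arrays shared a slide and a scan. The authors also deposited log2 P/FM values, each the mean over the spots of an accession. They were compared with means computed here over all spots of each accession, not with the probe values given above. These matched within 0.001 for 100% of 11483 accessions on the stressed array and 99.99% on the control array. The authors treated cells with cycloheximide before and during lysis. They kept the proportion of RNA between the fractions for labelling (300 ng in total) and filtered on A above 4.5.

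Here each mean spot intensity was reduced by its median local background, down to a floor of 0.5 (limma 3.58.1, R 4.3.3), with no normalization between dyes or arrays. Outlier-flagged spots (295 of 43379, none of a member) were dropped from both arrays, and spots were averaged per probe. Saturated spots numbered 0. Well above background were 42.5% and 44.6% (P) and 46.3% and 45.4% (FM) of spots in control and stress. No test was run, because each condition had 1 array of pooled RNA. Spread is given over spots or probes, not over cultures. All probes of the 10 genes were named. From each other list the largest fall, the largest rise and the probe nearest to the median were named, among probes that passed and were well above background in both dyes on both arrays. The members and lists were chosen with earlier results of these data known. The calculations were tested on simulated data. The alternatives tried are given below.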

Additional observations from a re-analysis of the deposited data

How the results depend on the processing

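Each result was recomputed under up to 16 alternatives. No paired analysis was possible because each condition has 1 array, and no replicate could be left out. As described, the counts were 7 (a change of -0.8 or lower), 4 (0.8 or more on both arrays), 1 (a rise from 0 or below), 0 and 0 (A higher or lower by 1), and the medians were 1.23 and 0.67 (log2 P/FM in control and stress), -0.57 (its change) and 0.29 (change in A). With normexp all 20 member probes passed, so the probe set changed too: the first 2 counts were 4 and 2 (beside 9.93% and 0.396% of all probes), 7 had a lower A (beside 71.6%), and the medians were 0.097, 0.17, 0.11 and -0.66. The last 2 reversed, but over the same 16 probes the change was -0.15. Without background subtraction, again over 20 probes, the levels were 0.67 and 0.069. In the processed signals, over 19 probes, 3 met the rule for a rise (beside 18.6%), the control median was 0.57 and the changes 0.14 and -0.13, both reversed; over the same 16 probes the count was 2 and the change 0.035. After loess and in the scanner's log ratio 2 probes rose (beside 18.4% and 17.7% of all probes). The control medians there were 0.65 and 0.64, and the changes reversed to 0.018 and 0.035. With each array centred 2 probes rose (beside 20.2%), 1 had a lower A (beside 5.89%), and the changes were -0.056 and, reversed, -0.20. With spike-in scaling the counts were 0, 10 and 2 (beside 0.594%, 28.6% and 38.6% of all probes), the stressed median 3.22 and the change 1.98, reversed, beside 1.94 for all probes. All probes with a negative change but Ccnd3 and Cdk4 turned positive there. Among those at -0.8 or lower these were Ccne1 (0.48 and 0.56), Ccna2 (1.1), Ccnb1 probe 3 (1.64) and Cdk6 probe 2 (1.03, and 0.26 with normexp). With no filter on A 2 probes rose (beside 14.3%). With the gene as the unit the counts were 4, 1 and 0 of 9 genes (beside 46.2%, 2.51% and 10.1% of all genes). The levels were 0.72 and 0.073 (beside 0.18 and -0.42). With only NM accessions 0 probes rose (beside 11.0%). In the authors' log2 values, 1 per accession, the counts were 4, 1 and 0 (beside 45.7%, 2.73% and 9.47%). The stressed median there was 0.20 (beside -0.36). Fewer units, and for NM accessions fewer probes, enter these last 3 by construction. The causes of the other shifts were not tested. The median spot signal, A above 5.5 or 7, only probes well above background and keeping outlier spots left these counts within 1.5 times and the medians within the spread between probes. For the changes of single probes, 141 of 219 values stayed within that spread, and 32 of the 219 had the other sign, 6 of them for probes at -0.8 or lower. The 219 include settings that only select probes: the other filters on A, only probes well above background and only NM accessions. They also include the kept outlier spots, and no member spot was flagged. Under these settings the value of a single probe cannot move, so the 141 overstate how well the changes held. Dim probes limit Cdk2, Cdkn1b and Cdk6, each with a probe not well above background.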
